A study of Mus musculus with 4 samples.

Results

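TGF-beta and activin are secreted dimeric growth factors, and 10 genes of their pathways, of 32285 in the files, were followed through the cells of the growing mouse incisor. They were chosen by symbol, without use of their measured values, though earlier results of these data were known. The genes are the ligands Tgfb1, Tgfb2 and Tgfb3, the receptors Tgfbr1, Tgfbr2 and Tgfbr3, the activin subunit Inhba and the activin antagonist Fst (follistatin). The others are the latent TGF-beta binding protein Ltbp1, and Tgfbi, a matrix protein named for its induction by TGF-beta. The data were single-cell RNA-seq of proximal tissue from lower incisors of mice at P15, with 2 WT and 2 Din-KO libraries, which the study made to compare cells with and without Din. Din-KO mice carried the tm1b allele of 4930453N24Rik (Din) in every cell, with exon 2 removed by a germline Cre and a LacZ reporter under the Din promoter. WT mice were the controls. The sources used here give no strain and no number of mice per library, so p-values measure the spread between these libraries only.

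Each TGF-beta ligand is secreted in a latent complex with its own propeptide, which latent TGF-beta binding proteins such as Ltbp1 tether to the matrix. The freed ligand binds the type II receptor Tgfbr2, which activates the type I receptor Tgfbr1 and through it SMAD proteins, while Tgfbr3 (betaglycan) presents ligand, TGF-beta2 above all. Activin A is a dimer of the Inhba product, signals through activin receptors to the same SMAD proteins, and is bound and neutralised by follistatin, and both pathways are known to act in tooth development, matrix formation and the stem cell niches of the incisor.

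The promoters of the ligand genes are shown because the text turns on where each ligand gene is expressed. RefSeq's promoter table (GRCm38.p6) held an entry for 7 of the 10 genes, and Tgfb3, Tgfbr3 and Fst are named only. Each window runs from 250 bases before to 50 bases after the transcription start, is given 5′ to 3′ on the strand of the gene, and has in capitals the motifs searched on both strands: the TATA box (TATAAA), the GC box (GGGCGG), the E-box (CACGTG), the CRE (TGACGTCA), the AP-1 site (TGACTCA) and the CCAAT box (CCAAT). Tgfb1 lies at chr7:25686752-25687051 (plus strand), Tgfb2 at chr1:186705940-186706239 (minus strand) and Inhba at chr13:16011601-16011900 (plus strand).
Tgfb1: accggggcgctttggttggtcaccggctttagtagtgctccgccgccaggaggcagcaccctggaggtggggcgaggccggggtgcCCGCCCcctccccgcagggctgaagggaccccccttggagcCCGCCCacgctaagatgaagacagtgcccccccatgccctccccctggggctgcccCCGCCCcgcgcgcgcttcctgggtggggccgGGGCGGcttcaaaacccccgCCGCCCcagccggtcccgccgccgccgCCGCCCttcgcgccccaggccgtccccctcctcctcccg
Tgfb2: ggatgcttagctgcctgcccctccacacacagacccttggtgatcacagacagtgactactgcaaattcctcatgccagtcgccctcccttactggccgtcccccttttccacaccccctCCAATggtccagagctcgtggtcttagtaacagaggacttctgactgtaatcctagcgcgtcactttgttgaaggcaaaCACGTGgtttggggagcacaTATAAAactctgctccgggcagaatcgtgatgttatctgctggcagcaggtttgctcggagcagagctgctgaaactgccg
Inhba: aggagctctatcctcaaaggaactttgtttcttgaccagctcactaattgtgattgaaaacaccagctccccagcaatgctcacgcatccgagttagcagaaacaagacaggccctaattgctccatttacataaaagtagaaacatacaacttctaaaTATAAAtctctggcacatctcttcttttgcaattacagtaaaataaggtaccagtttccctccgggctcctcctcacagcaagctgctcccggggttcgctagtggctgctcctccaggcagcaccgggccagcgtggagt
The Tgfb1 window held 6 GC boxes, 30 CpG dinucleotides and 77% G and C, a higher content than 97.6% of 32851 promoters, and no TATAAA. The Tgfb2 window held TATAAA at base -31, CACGTG at -51 and CCAAT at -130 with 54.3% G and C, and the Inhba window held TATAAA at -91 with 47.7% G and C. Over all promoters of the table, 35.7% held a GC box, 13.6% TATAAA, 7.15% CACGTG and 37.4% CCAAT. The 3 windows thus differed in G and C content and in the motifs they held. These are descriptions of letters, and none of them was tested for activity here.

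After filters on genes, mitochondrial and hemoglobin UMIs, 11310 cells remained of 20502 barcodes (1272 to 4575 per library, median 8016 to 11587.5 UMIs per cell). Replicate 1 of each genotype had 50423655 (WT) and 54348039 (Din-KO) UMIs over all barcodes, and replicate 2 had 32198098 and 33076212. Clustering without the 10 genes and other pathway genes left 2 of 32 clusters without a name and 30 with one taken from markers, and the names carry the ending "-like" for that reason. The classes were mesenchyme-like (6998 cells), whose subclasses were odontoblast-like, dental pulp-like and dental follicle-like, then perivascular-like, glia-like, epithelium-like and endothelium-like, and among blood and immune cells B-like, neutrophil-like, macrophage-like, erythroid-like, and monocyte or dendritic-like. Of barcodes, 44 occurred in 2 libraries, 11 of them among the cells kept. Cells with Y-linked UMIs made up 43.5% and 43.0% of mesenchyme-like cells of the Din-KO libraries and 0 of the WT libraries, so sex and genotype cannot be told apart in comparisons over all cells. Din itself was at 33.1 and 24.6 CPM in WT and 17.3 and 21.0 CPM in Din-KO, and it was not examined where in the gene these UMIs lie, so that its level does not check the labels.

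Levels are UMIs of a gene summed over the cells of a class and library and scaled to CPM, that is divided by all UMIs of those cells and multiplied by 1000000, and were compared within a gene and between 12 classes with the 3 mesenchyme-like subclasses set apart. The 3 mesenchyme-like clusters without a subclass (600, 520 and 155 cells) enter the mesenchyme-like class and none of the 12. The classes were formed from other genes of the same cells. Several small classes rest on few cells, with 10 to 26 perivascular-like and 14 to 45 glia-like cells per library.

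The ligand genes differed in where they were highest. Tgfb1 was spread over macrophage-like, odontoblast-like, monocyte or dendritic-like, B-like and endothelium-like cells, whereas Tgfb2 and Tgfb3 were highest in perivascular-like and dental pulp-like cells. Tgfb1 (chr7:25687002-25705077) was at 227, 336, 281 and 387 CPM in macrophage-like cells of WT replicates 1 and 2 and Din-KO replicates 1 and 2, a mean of 307.9 ± 69.1 (SD, n = 4 libraries). In odontoblast-like cells, which secrete dentin, it was at 166, 363, 213 and 318 CPM in the same order. Neighbours among the first 6 classes in the order of Tgfb1, down to dental pulp-like cells (180.5 ± 9.1), overlapped, and dental pulp-like cells stood clear of the class below them, dental follicle-like cells (125.6 ± 23.5). Glia-like cells were last with 43.9 ± 22.6 CPM.

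Tgfb2 (chr1:186622792-186705989, minus strand) was at 379, 157, 475 and 327 CPM in perivascular-like cells (334 ± 133). It was at 350, 298, 329 and 312 CPM in dental pulp-like cells (322 ± 22). The perivascular-like libraries spanned the dental pulp-like ones, so these classes did not differ beyond their spread, and both means exceeded that of odontoblast-like cells (166 ± 23), with the dental pulp-like libraries all above them. Monocyte or dendritic-like (4.58 ± 2.6 CPM) and B-like cells were lowest, and macrophage-like cells were at 21.6 ± 4.3.

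Tgfb3 (chr12:86056745-86079041, minus strand) was at 193, 180, 137 and 127 CPM in perivascular-like cells (159 ± 32). It was at 172, 138, 134 and 95.05 CPM in dental pulp-like cells (135 ± 31). Perivascular-like cells were above dental pulp-like cells in 4 of 4 libraries, though the ranges of the classes overlapped. Odontoblast-like cells fell into a low and a high pair, with 17.6 and 20.6 CPM in replicate 1 of WT and Din-KO and 134 and 94.0 in replicate 2. In the cluster led by Dkk1, Dmp1 and Smpd3, Tgfb3 was at 6.4 to 15.8 CPM, and in the cluster led by Bglap, Bglap2 and Dspp, genes of mature dentin-forming cells, at 98.9 to 226 CPM, above it in 4 of 4 libraries. The second cluster held 10 and 16 cells in replicates 1 and 66 and 43 in replicates 2 of WT and Din-KO, and its part in the level of the whole class was not tested.

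**Figure D1:**
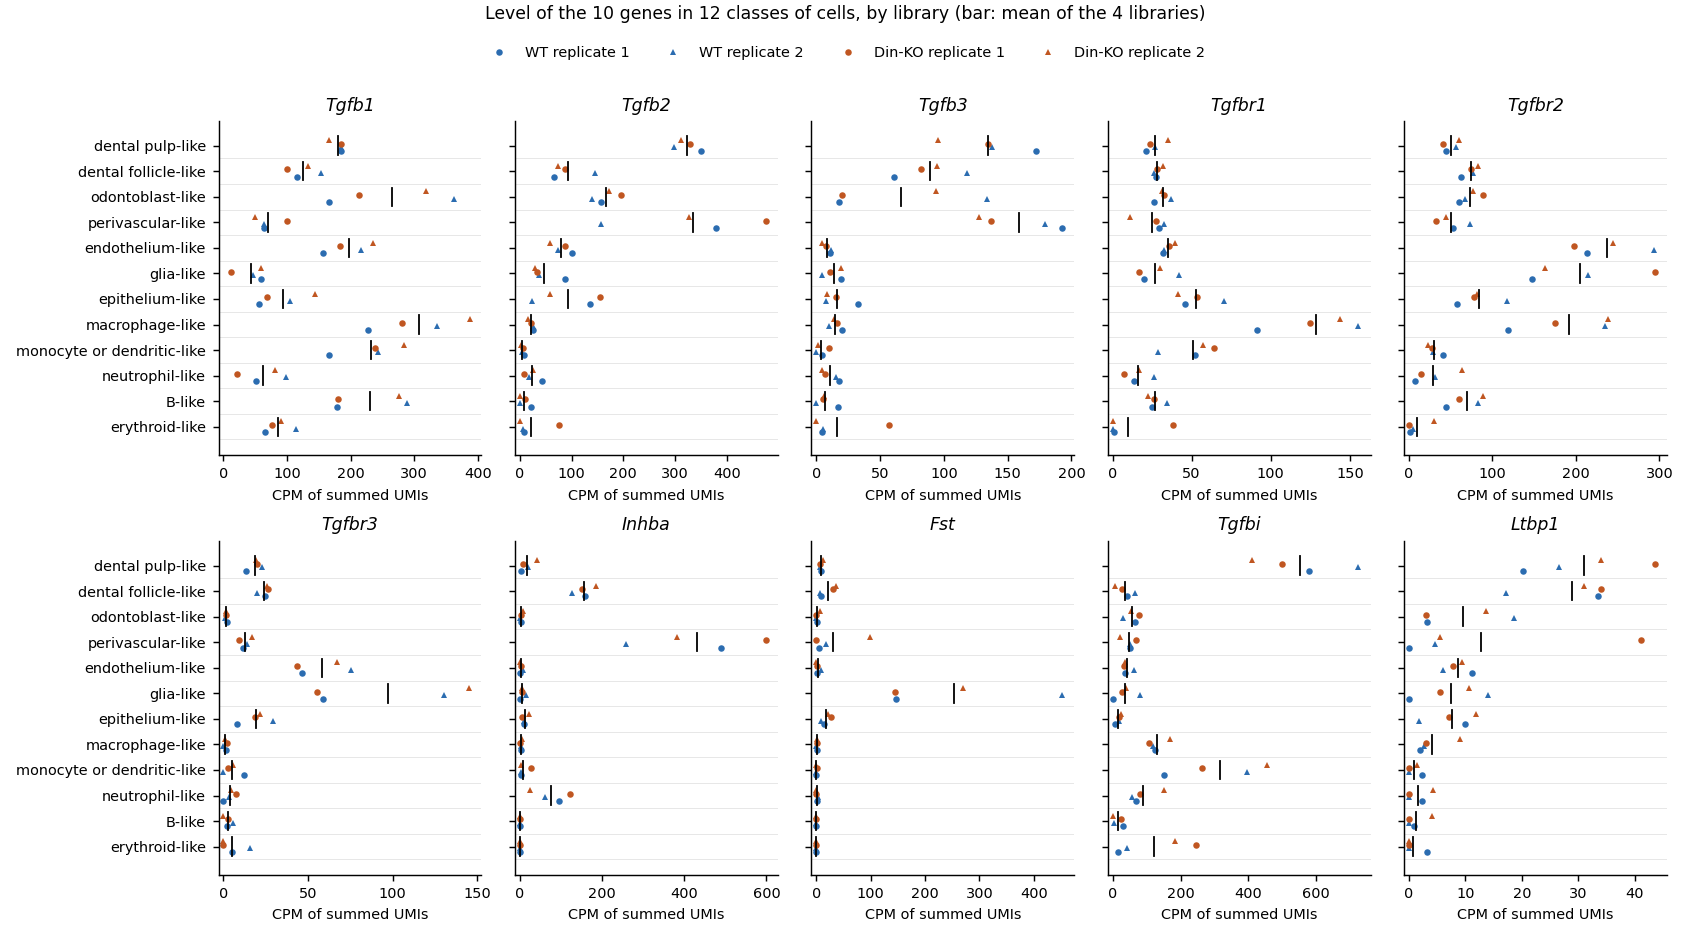
Level of each of the 10 genes (CPM of summed UMIs, 1 panel per gene with its own scale) in 12 classes of cells, with 1 point per library coloured by genotype and a bar for the mean of the 4 libraries. Inhba stands clear in perivascular-like cells (257.9 to 598.1 CPM) and Fst in glia-like cells (144.4 to 452.2 CPM), while the highest classes of Tgfb1 overlap.

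The receptors followed another order, with macrophage-like, endothelium-like and glia-like cells at the top. Tgfbr1 (chr4:47353222-47414931), the type I receptor, was at 91.4, 155, 125 and 144 CPM in macrophage-like cells (129 ± 28). The 4 libraries lay above every library of the next class, epithelium-like cells (52.5 ± 12.8). From monocyte or dendritic-like cells (50.7) down to erythroid-like cells (9.76), neighbouring classes overlapped. Among macrophage-like clusters, the one led by Apoe, C1qa and Ctss was at 148, 241, 198 and 237 CPM and the one led by Pf4, Lyve1 and Cd209f at 56 to 105 CPM.

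Tgfbr2 (chr9:116084293-116175360, minus strand), the type II receptor, was at 213, 293, 198 and 244 CPM in endothelium-like cells (237 ± 42). It was at 118, 234, 174 and 239 CPM in macrophage-like cells (191 ± 57). Glia-like cells lay between them (205 ± 66), these classes did not differ beyond their spread, and macrophage-like cells stood clear of epithelium-like cells (83.6 ± 24.7). The endothelial cluster led by Gja4, Cldn5 and Tm4sf1 reached 357 to 827 CPM. Dental pulp-like cells, at 50.3 ± 9.3, were low in the receptor and high in Tgfb2 and Tgfb3.

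Tgfbr3 (chr5:107106570-107289629, minus strand) was at 58.8, 131, 55.5 and 145 CPM in glia-like cells (97.5 ± 47.0). In endothelium-like cells it was at 46.4, 75.5, 43.7 and 67.4 CPM (58.2 ± 15.6). Glia-like cells were above endothelium-like cells in 4 of 4 libraries with overlapping ranges, and both were above dental follicle-like cells (24.2 ± 3.0). Macrophage-like cells (1.06 ± 0.80) and odontoblast-like cells (1.54 ± 0.36, from 3 or 4 UMIs per library) were lowest.

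Activin and its antagonist had their highest levels in different cells. Inhba (chr13:16011851-16031621), whose promoter is shown above, was at 490, 258, 598 and 382 CPM in perivascular-like cells (432 ± 146). It was at 159, 127, 150 and 186 CPM in dental follicle-like cells (156 ± 24). Perivascular-like cells stood clear of dental follicle-like cells, and these of neutrophil-like cells (75.9 ± 42.1, 6 to 42 UMIs per library). Dental pulp-like (18.4 ± 16.4) and odontoblast-like cells (2.90 ± 2.7) were far lower, and erythroid-like cells held no UMI.

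Fst (chr13:114452290-114458951, minus strand) was at 147, 452, 144 and 269 CPM in glia-like cells (253 ± 145). All glia-like libraries were above all libraries of the next class, perivascular-like cells, where 1, 4, 0 and 18 UMIs gave a mean of 31.0 CPM. Glia markers summed to 11500 CPM in glia-like cells of WT replicate 2, where Fst was highest, and to 32070 to 38970 CPM in the other libraries, with mesenchyme markers at 10970 CPM there and 1683 to 4697 CPM in the others, and their part in the Fst level was not tested. Dental follicle-like (20.8 ± 14.8) and epithelium-like cells (18.0 ± 8.8) came next. Within the epithelium Fst was at 18.7 to 59.4 CPM in the cluster led by Shh and Epcam and at 0 to 5.6 CPM in the cluster led by the enamel genes Amelx, Enam and Ambn. No Fst UMI was found in 596 B-like cells, which allows a share of up to 0.503% of cells with a UMI.

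The share of cells with a UMI gave the same leading class as CPM for 5 of 10 genes as deposited and for 8 of 10, without Tgfb2 and Ltbp1, with each cell thinned to 2000 UMIs. For Inhba it was 69.4% ± 5.3 in dental follicle-like cells and 39.6% ± 6.5 in perivascular-like cells as deposited, and 24.8% ± 4.2 and 29.2% ± 13.7 when thinned. With thinned cells the ranges of these classes overlapped. In B-like cells, which should lack Inhba, the share was 0.123% ± 0.25 at median depths of 2579 to 3550 UMIs, against 10886 to 18471 UMIs in dental follicle-like cells, and 0.127% ± 0.25 when thinned. Fst was found in 59.5% ± 19.99 of glia-like and 0.733% ± 0.50 of macrophage-like cells as deposited, and in 29.4% ± 21.4 and 0% when thinned (0 of 1406 macrophage-like cells allows up to 0.213%). Intervals and limits cover counting error only.

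The matrix genes had their highest mean in dental pulp-like cells. Tgfbi (chr13:56609523-56639562) was at 580, 724, 498 and 411 CPM in dental pulp-like cells (553 ± 133). It was at 150, 396, 264 and 455 CPM in monocyte or dendritic-like cells (316 ± 137). The ranges overlapped, and in Din-KO replicate 2 the order of these classes was turned. Tgfbi was not high in all mesenchyme, with 56.8 ± 19.1 CPM in odontoblast-like and 36.0 ± 25.2 in dental follicle-like cells. Macrophage-like cells were above both means, at 129.6 ± 26.7 CPM. Ltbp1 (chr17:75005568-75392512) was low in the classes as wholes, with 20.3, 26.5, 43.6 and 34.0 CPM in dental pulp-like cells (31.1 ± 10.0). In dental follicle-like cells it was at 33.5, 17.2, 34.1 and 31.0 CPM (28.9 ± 8.0), and these classes did not differ beyond their spread. Leading classes changed when only 1 genotype was used: in WT alone Tgfb2 was highest in dental pulp-like and Ltbp1 in dental follicle-like cells, and in Din-KO alone Tgfbr2 in glia-like cells.

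Within the mesenchyme, the 13 mesenchyme-like clusters separated the genes further. The dental pulp-like cluster led by Cnmd, Gpha2 and Fmod was highest in Tgfb2 (587, 436, 570 and 665 CPM) and in Tgfbi (779, 1350, 810 and 1137 CPM), though only 8 of its cells came from each replicate 2. The dental pulp-like cluster led by Postn, Slc20a2 and Pdlim3, which held 78, 3, 105 and 8 cells, was highest in Tgfb1 (343, 821, 539 and 431 CPM) and Ltbp1 (120, 224, 377 and 287 CPM). Ltbp1 was uneven among dental pulp-like clusters, with a mean of 54.0 CPM in the cluster led by Cldn10, Slc20a2 and Ifitm1 and 0.8 in the one led by Vcan, Rspo4 and Col9a3. Tgfbi had the reverse order in these clusters, 572 and 716 CPM.

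Inhba was highest in the dental follicle-like cluster led by Sfrp2, Gm26771 and Pcp4 (297, 258, 203 and 305 CPM), above the cluster led by Tnn, Bmp3 and Nts (84.6 to 128 CPM) in 4 of 4 libraries. Among dental pulp-like clusters it was highest in the one led by Smoc2, Lypd1 and Sostdc1 (29.0, 126, 33.2 and 98.7 CPM), with means of 0.33 to 26.1 CPM in the other 4. That cluster also had the highest mean Fst of the dental pulp-like clusters (25.3 CPM) and the lowest Tgfbi (109 CPM) and Tgfb1 (71.9 CPM). Fst was highest of all mesenchyme-like clusters in the dental follicle-like cluster led by Spp1, Mmp13 and Ibsp, genes of mineralising bone cells, at 23.4, 77.7, 137 and 256 CPM. The proliferating cluster led by Hist1h1b, Top2a and Pclaf was low in Tgfb3 (13.2 CPM), Fst (1.1 CPM) and Ltbp1 (0.4 CPM).

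**Figure D2:**
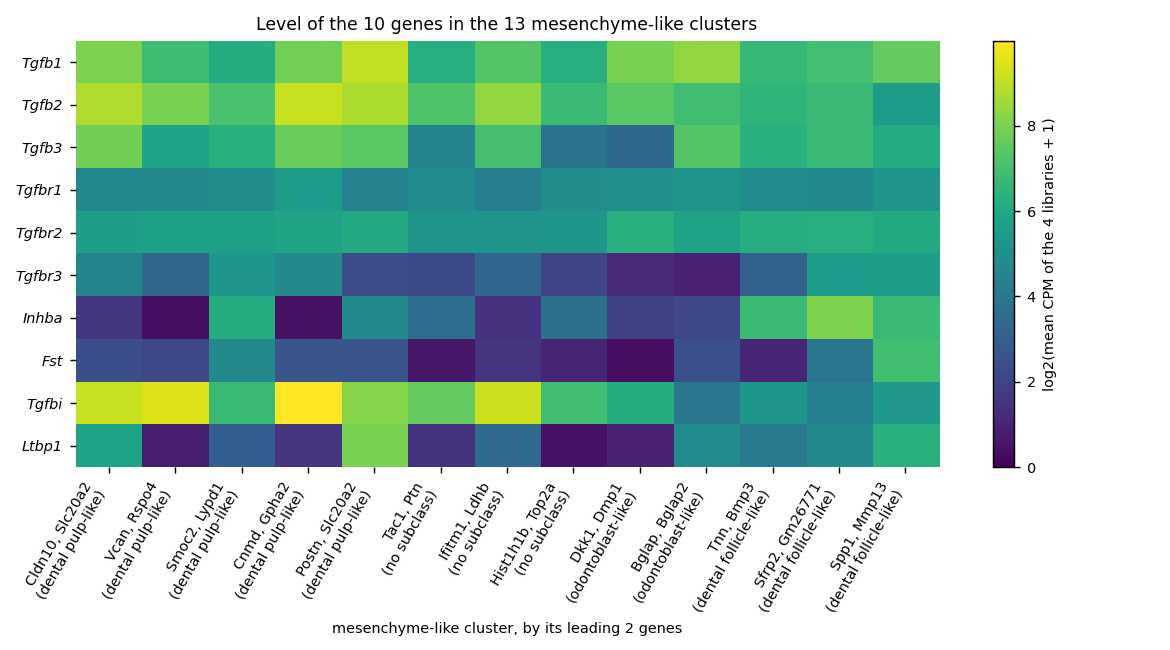
Colour map of the level of the 10 genes, log2(mean CPM of the 4 libraries + 1), in the 13 mesenchyme-like clusters, each named by its leading genes and, for all but 3 of them, a subclass. Inhba is highest in the Sfrp2-led and Fst in the Spp1-led dental follicle-like cluster, and Tgfb2 and Tgfbi in the Cnmd-led dental pulp-like cluster.

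Levels across the 12 classes, as log2(mean CPM of the 4 libraries + 1), gave the genes most like each member, as a description over 12 points that share 4 libraries, among 12849 genes with at least 10 CPM in some class. For the ligands these were Acot8, Nrbf2 and Foxred1 for Tgfb1 (Pearson's r 0.87 to 0.84), Lhfp, Armcx1 and Gorab for Tgfb2 (0.96 to 0.94), and Smarca1, Sobp and Nfatc4 for Tgfb3 (0.96). For the receptors they were Serpinb8 and Pikfyve for Tgfbr1 (0.97 and 0.94), Gtdc1, Brox and Kcmf1 for Tgfbr2 (0.89), and Prrg3, Npr3 and Grasp for Tgfbr3 (0.93 to 0.88). Inhba was most like Slc44a5, Actn1 and Astn2 (0.89 to 0.86), and Fst was most like Gpm6b, Nnat and Lurap1 (0.95). Tgfbi was most like Emilin2, Batf and Grin3a (0.90 to 0.82), and Ltbp1 like Tro, Fam229b and 2210408I21Rik (0.96). Among the 10 genes the highest values were 0.87 for Tgfb2 with Tgfb3 and with Ltbp1, and the lowest was -0.63 for Tgfb1 with Fst.

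To test differences between cell types, 4 classes were each compared with mesenchyme-like cells in the quasi-likelihood test of edgeR, with the library as a block. P was adjusted over all genes tested by Benjamini and Hochberg, and log2 fold changes are given with their standard errors. Mesenchyme-like cells are a mixture of subclasses, in shares that differed between libraries, so a difference from them need not hold against each subclass.

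Endothelium-like cells, which line vessels, were higher in the receptors and lower in most of the ligands. Of 10 genes 9 were called, against 57.7% of 13515 genes tested, with 3 higher (28.0% of all genes were higher) and 6 lower (29.7%). Tgfbr2 was higher by 2.0 ± 0.11 (adjusted p = 7.49e-06) and Tgfbr3 by 1.88 ± 0.15 (adjusted p = 4.04e-05). Tgfb3 fell by 3.66 ± 0.15 on the log2 scale (adjusted p = 1.88e-06) and Inhba fell by 4.16 ± 0.43 (adjusted p = 0.000149). Tgfb2, Tgfbi, Fst and Ltbp1 were also lower, and Tgfb1 differed by 0.19 ± 0.10 (adjusted p = 0.139). The calls of Tgfbr1 (0.34 ± 0.12, adjusted p = 0.0422) and Fst (-2.18 ± 0.77, adjusted p = 0.0445) were near the threshold, and each was lost when replicate 1 of WT, or either library of Din-KO, was left out. Mesenchyme markers summed to 3890 CPM in endothelium-like cells of WT replicate 2 and 428 to 676 CPM in the other libraries, and their part in these values was not tested.

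Macrophage-like cells were also higher in both signalling receptors. Of 10 genes 9 were called, against 67.0% of 13663, with 3 higher (30.7% of all genes) and 6 lower (36.3%). Tgfbr1 was higher by 2.46 ± 0.12 (adjusted p = 9.08e-08), Tgfbr2 by 1.92 ± 0.12 (adjusted p = 7.20e-07) and Tgfb1 by 1.08 ± 0.12 (adjusted p = 3.84e-05). Tgfbr3 went the other way, lower by 8.36-fold (log2 fold change -3.06 ± 0.32, adjusted p = 1.88e-05). Tgfb2 (-3.03 ± 0.13), Tgfb3, Inhba, Fst and Ltbp1 were lower too, and Tgfbi (-0.67 ± 0.32, adjusted p = 0.0949) was not called.

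Epithelium-like cells, which form enamel, were higher in Tgfbr1 and Tgfbr2 and lower in the ligands other than Tgfb1. Of 10 genes 8 were called, against 35.8% of 13247, with 3 higher (15.3% of all genes) and 5 lower (20.5%). Tgfbr1 was higher by 1.27 ± 0.22 (adjusted p = 0.00605), Fst by 1.16 ± 0.26 (adjusted p = 0.0159) and Tgfbr2 by 0.84 ± 0.20 (adjusted p = 0.0204). The mean of Fst was 18.0 CPM in epithelium-like cells, 20.8 in dental follicle-like cells and 8.66 in dental pulp-like cells. Inhba (-1.84 ± 0.15, adjusted p = 0.000403), Tgfb3 (-2.54 ± 0.24), Tgfbi (-3.41 ± 0.67), Tgfb2 (-1.07 ± 0.27) and Ltbp1 (-1.32 ± 0.32) were lower. Only 4 genes were called without Din-KO replicate 1, and Fst was at 0.64 and not called (adjusted p = 0.39) once the highest-scoring cells by a doublet caller were removed. The share of all genes called in these 2 settings is not reported here, so the loss of calls is not shown to be particular to these genes.

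Perivascular-like cells could be compared in replicate 1 of each genotype alone, since replicates 2 held fewer than 20 of them. Of 10 genes 4 were called, against 12.8% of 14014, with 2 higher (5.99% of all genes) and 2 lower (6.79%). Inhba was higher by 15.6-fold (3.96 ± 0.21, edgeR adjusted p = 1.17e-76) and Tgfb2 by 0.63 ± 0.20 (adjusted p = 0.0184). Tgfbi (-2.73 ± 0.29, adjusted p = 1.06e-19) and Tgfb1 (-1.02 ± 0.27, adjusted p = 0.00267) were lower. With 2 libraries here, against 4 for the other classes, these p-values hardly measure a spread between libraries. They cannot be set beside those of the other classes. With DESeq2, as with thinned cells, Inhba and Tgfbi were called and the other 8 were not. At a clustering resolution of 0.5 and without integration the class took in more cells, and all 4 libraries entered these fits. There 7 genes were called and Tgfb2 was at -0.46 and -0.49. Clustering and libraries changed together, so their parts in the turned direction cannot be told apart. The share of all genes called in these settings is not reported here.

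**Figure D3:**
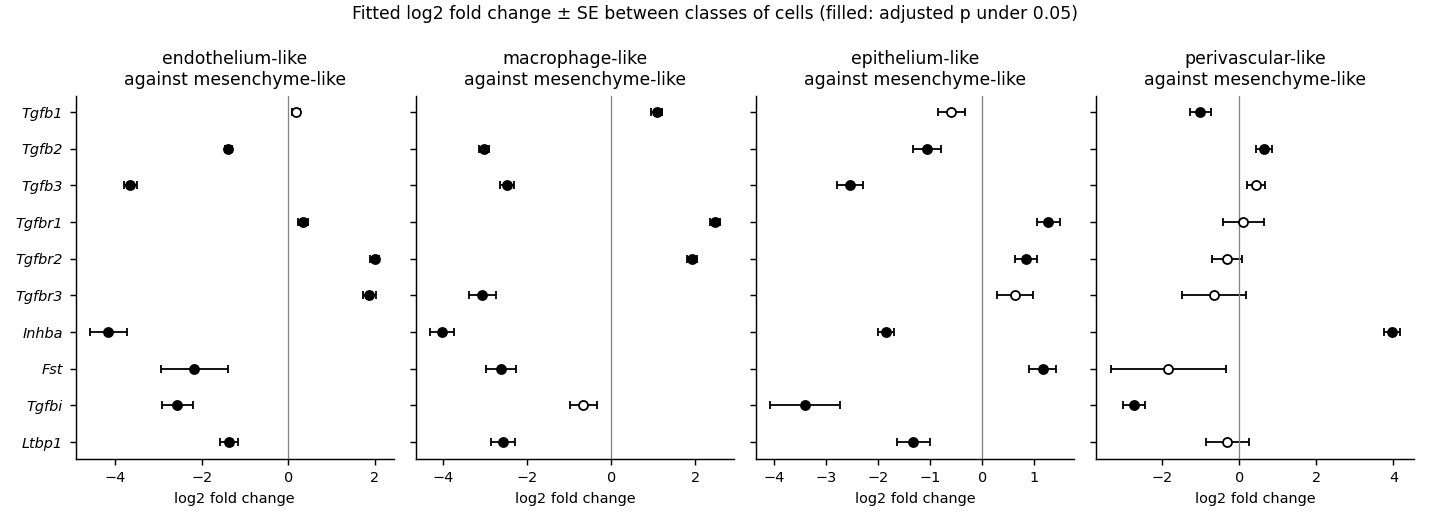
Fitted log2 fold change ± standard error of the 10 genes in 4 classes of cells, each against mesenchyme-like cells (filled points: adjusted p under 0.05 in edgeR). Tgfbr1 and Tgfbr2 lie to the right in endothelium-like, macrophage-like and epithelium-like cells, and Inhba lies to the right in perivascular-like cells alone.

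The other genes of the pathway came from lists of 35 components and 17 transcriptional targets. In endothelium-like cells 14 of 32 tested components were higher and 11 lower, with a median log2 fold change of 0.27 against -0.05 over all genes. Eng (endoglin, an endothelial co-receptor) reached 1027 CPM there, 5.27 ± 0.11 above mesenchyme-like cells (edgeR adjusted p = 2.57e-07). In macrophage-like cells 8 of 32 components were higher and 19 lower (median -0.98, all genes -0.07), in epithelium-like cells 9 and 9 of 32 (0.21, all genes -0.04), and in perivascular-like cells 4 and 2 of 33 (0.09, all genes -0.26). Bambi, a decoy receptor, was highest in odontoblast-like cells (1230 CPM), and Fstl1, a secreted relative of follistatin, in perivascular-like cells (1032 CPM), with 1024 CPM in dental follicle-like cells. Transcriptional targets, many of them collagens and other matrix genes, were lower in 12 and higher in 1 of 16 in epithelium-like cells, where 20.5% of all genes were lower and 15.3% higher. In macrophage-like cells 14 of 17 were lower and 2 higher, against 36.3% and 30.7% of all genes, and in endothelium-like cells 8 and 6 of 17, against 29.7% and 28.0%. In perivascular-like cells 3 of 17 were lower and 7 higher, against 6.79% and 5.99%. Their median log2 fold changes were -3.08, -2.62, -0.41 and 0.33 in this order, against -0.04, -0.07, -0.05 and -0.26 over all genes. Of these targets, Col1a1 and Col3a1 were also markers used to name mesenchyme-like clusters. Their differences from mesenchyme-like cells are therefore not independent of the naming, and the counts were not redone without them.

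Nrros and Itgb6 were chosen after their values were seen. Nrros, which tethers latent TGF-beta on macrophages, was higher by 7.61 ± 0.19 on the log2 scale in macrophage-like cells (edgeR adjusted p = 1.83e-09) and by 5.28 ± 0.27 in endothelium-like cells (adjusted p = 6.04e-06). Itgb6, an integrin chain of epithelia that activates latent TGF-beta, was higher by 8.95 ± 0.34 in epithelium-like cells (adjusted p = 4.47e-05). Ltbp4, a relative of Ltbp1, was higher by 3.94 ± 0.67 in endothelium-like cells (edgeR adjusted p = 0.00181). In perivascular-like cells Ltbp4 was higher by 3.73 ± 0.39 (edgeR adjusted p = 8.75e-20, from 2 libraries only). Ltbp1 was not called there (-0.32 ± 0.56), and its direction depended on the clustering.

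Between genotypes, no gene of the 10 was called in any of the 7 classes tested, with edgeR's test of 2 libraries against 2 after the filter on low counts. Perivascular-like cells, highest in Inhba, and glia-like cells, highest in Fst and Tgfbr3, were not among these classes. In mesenchyme-like cells 0 of 10 were called (0% of 15199 genes) and 0 had an unadjusted p under 0.05, against 152 of all genes, and DESeq2 called 17 of all genes and 0 of the 10. Fst was at 7.4 CPM in replicate 1 and 4.6 in replicate 2 of WT, and at 9.2 and 20.9 in those of Din-KO (log2 fold change 1.27 ± 0.51, adjusted p = 1), and the difference was 0.58 without Din-KO replicate 2 and 1.76 without Din-KO replicate 1. Ltbp1 was at 18.5 and 16.1 CPM in WT and 29.7 and 23.1 in Din-KO (0.57 ± 0.22, adjusted p = 1). Tgfb3 was at 124 and 109 CPM in WT and 96.3 and 82.6 in Din-KO (-0.42 ± 0.20, adjusted p = 1). Together with Tgfbr3 (0.22 ± 0.20) these were the 4 genes whose genotypes did not overlap, where 18.1% of all genes did not. The remaining genes lay between -0.51 ± 0.70 (Tgfbi) and 0.38 ± 0.67 (Inhba), and both moved more with the replicate than with the genotype: Tgfbi was at 420 and 331 CPM in replicates 1 and at 184 and 103 in replicates 2. Within replicates 1 Tgfbi differed between genotypes by -0.34 and within replicates 2 by -0.84 on the log2 scale, and Inhba by 0.05 and 0.56. Dental pulp-like cells made up 1757 of 2624 and 1973 of 2989 mesenchyme-like cells in replicates 1 of WT and Din-KO and 215 of 792 and 156 of 593 in replicates 2, and the part of this mixture in the Tgfbi level was not tested.

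In dental pulp-like cells 0 of 10 were called (0.0148% of 13499 genes), also with DESeq2, and 3 did not overlap, against 23.4% of all genes. Ltbp1 was at 20.3 and 26.5 CPM in WT and 43.6 and 34.0 in Din-KO, a log2 fold change of 0.78 ± 0.26 with an unadjusted p of 0.0179 and an adjusted p of 1 in edgeR. Tgfbi was at 580 and 724 CPM in WT and 498 and 411 in Din-KO (-0.51 ± 0.25, adjusted p = 1), and Tgfb3 differed by -0.43 ± 0.30. In the Smoc2-led cluster, low in Tgfbi, were 204 and 33 of these cells in WT and 567 and 56 in Din-KO, and in the Cldn10-led cluster Ltbp1 was at 32.8 and 61.1 CPM in WT and 69.3 and 52.6 in Din-KO, which overlapped. In the Postn-led cluster, highest in Ltbp1, it was at 120 and 224 CPM in WT and 377 and 287 in Din-KO, which did not overlap. That cluster held 78 and 3 cells in WT and 105 and 8 in Din-KO, and its part in the class difference was not tested. Inhba was at 4.07 and 20.01 CPM in WT and 8.74 and 40.9 in Din-KO (1.09 ± 0.86, adjusted p = 1). It was called without Din-KO replicate 1 (1.93, adjusted p = 0.00753), but its direction turned without Din-KO replicate 2 (-0.24) and in Xist cells (-0.50). The Smoc2-led cluster, highest in Inhba among dental pulp-like clusters, held 204 of 1757 and 33 of 215 of these cells in WT. In Din-KO it held 567 of 1973 and 56 of 156, and its part in the Inhba difference was not tested. Markers of the dental follicle, where Inhba was higher, summed to 1759 and 2048 CPM in dental pulp-like cells of WT and to 2673 and 3157 CPM of Din-KO, and the part of these markers in the differences was not tested.

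The largest difference between genotypes of these genes within a class, among those tested in the 7 classes, was that of Fst in dental follicle-like cells, where 0 of 10 were called (0% of 12773 genes) and 4 did not overlap (24.0% of all genes). In replicates 1 and 2, Fst was at 8.9 and 7.4 CPM for WT (43 and 57 UMIs) and at 31.1 and 36.0 CPM for Din-KO (145 and 210 UMIs). Both Din-KO libraries were above both WT libraries, within replicates 1 by 1.80 and within replicates 2 by 2.29 on the log2 scale. The fitted difference was 1.99 ± 0.24, or 3.97-fold, with an unadjusted p of 0.000184 and an adjusted p of 0.271 in edgeR. It was past the threshold with DESeq2 (adjusted p = 0.00125) and with no filter on low counts in edgeR (9.15e-08). With each library left out the log2 fold change was 1.835 to 2.136. Over all alternatives the adjusted p ranged from 9.15e-08 to 0.362, the last being with Xist cells only (2.59). How many of all genes passed in these settings is not reported here, so the lower adjusted p is not shown to be particular to Fst. As shares of cells with a UMI, Fst was found in 6.13% and 4.09% of WT and 14.6% and 12.4% of Din-KO dental follicle-like cells, and in 0.971% and 1.09% of WT and 5.64% and 4.15% of Din-KO cells when thinned.

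The Fst UMIs came mostly from the Spp1-led cluster, with 30 of 43 and 51 of 57 in WT and 75 of 145 and 183 of 210 in Din-KO, where the Sfrp2-led cluster of replicate 1 gave 69 more. The Spp1-led cluster had 1 marker of its class, Mmp13, among its 10 leading genes, and no marker list of bone cells was used. Its name as dental follicle-like is therefore uncertain. In this cluster Fst was at 23.4 and 77.7 CPM in WT (82 and 40 cells) and 137 and 256 CPM in Din-KO (40 and 36 cells). In the Sfrp2-led cluster it was at 10.3 and 2.5 CPM in WT and 36.0 and 8.1 CPM in Din-KO, where the genotypes overlapped. Markers of glia, the class with the highest Fst, summed to 83.5 and 77.8 CPM in dental follicle-like cells of WT and 54.6 and 106 CPM in Din-KO, and perivascular markers to 926 and 514 CPM and 1193 and 758 CPM, and the genotypes overlapped in both lists, though perivascular markers were higher in Din-KO within replicates 1 and within replicates 2. The genotypes did not overlap in markers of monocyte or dendritic cells (24.1 and 8.51 CPM in WT, 34.3 and 83.4 in Din-KO), of B cells (77.3 and 80.2, 89.8 and 152) and of osteoclasts (393 and 357, 318 and 354), and Fst itself was at 0.31 CPM in monocyte or dendritic-like and 0 in B-like cells. Mast or basophil markers were at 158 CPM in Din-KO replicate 2 and at most 3.32 CPM in the other libraries, and the part of all these lists in the Fst difference was not tested.

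Tgfbi moved the other way in dental follicle-like cells. It was at 41.97 and 67.3 CPM in WT (202 and 522 UMIs) and 27.0 and 7.5 CPM in Din-KO (126 and 44 UMIs), a log2 fold change of -1.72 ± 0.60 (edgeR adjusted p = 0.9995). The genotypes did not overlap, and the difference was -0.64 within replicates 1 and -3.16 within replicates 2. Replicates 2 held both the highest library (WT) and the lowest (Din-KO), and so set much of the size of the difference. Without Din-KO replicate 2 it was -1.05 (adjusted p = 1), and without Din-KO replicate 1 it was -2.91 (adjusted p = 0.00218). In the Spp1-led cluster Tgfbi was at 92.8 and 45.7 CPM in WT and 20.04 and 4.2 in Din-KO, and in the Tnn-led cluster, at 25.1 and 84.6 CPM against 35.9 and 8.9, the genotypes overlapped. Inhba, the activin gene, differed little in these cells (0.17 ± 0.23, adjusted p = 0.9995).

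**Figure D4:**
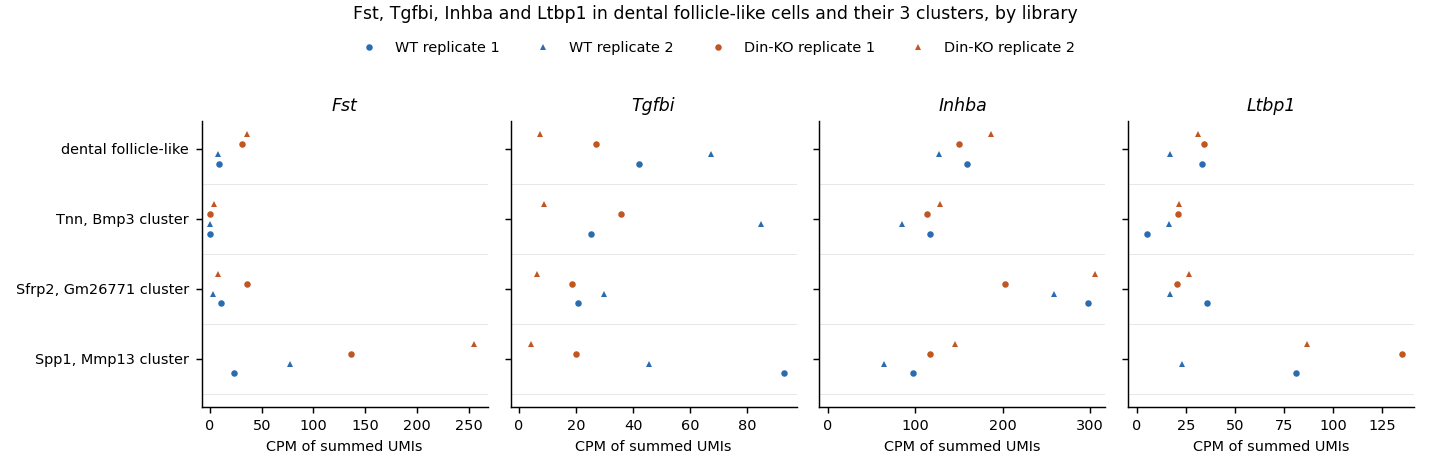
Level of Fst, Tgfbi, Inhba and Ltbp1 (CPM of summed UMIs) in dental follicle-like cells and in each of their 3 clusters, with 1 point per library coloured by genotype. Both Din-KO points of Fst lie above both WT points in all dental follicle-like cells and in the Spp1-led cluster, while those of Inhba overlap with WT in all dental follicle-like cells.

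In the remaining classes 0 genes were called of 7 tested in odontoblast-like cells (0% of 10400 genes), 8 in endothelium-like cells (0.0540% of 11116), 10 in epithelium-like cells (0% of 11493) and 7 in macrophage-like cells (0.0726% of 11023). DESeq2 called 0 of the 10 in these classes as well, and an unadjusted p under 0.05 was found for 1 gene, Fst in epithelium-like cells. Fst was there at 13.9 and 8.0 CPM in WT and 27.9 and 22.4 CPM in Din-KO (1.10 ± 0.32, unadjusted p = 0.0186, edgeR adjusted p = 0.9999), and was the 1 gene whose genotypes did not overlap (21.2% of all genes). The Shh-led cluster, which held most of the Fst UMIs, had 122 of 145 epithelium-like cells in WT replicate 1 but 32 of 121 in WT replicate 2. Its Fst level was 18.7 and 59.4 CPM in WT and 47.8 and 47.0 CPM in Din-KO, which overlapped. Glia markers summed to 36.4 and 14.6 CPM in epithelium-like cells of WT and 48.9 and 185 CPM of Din-KO, and their part in the Fst difference was not tested.

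In odontoblast-like cells Tgfb2 was at 158 and 140 CPM in WT and 195 and 173 in Din-KO (0.21 ± 0.26), and Tgfbr2 at 59.6 and 67.4 CPM in WT and 88.8 and 76.1 in Din-KO (0.27 ± 0.27). Markers of perivascular cells, where Tgfb2 was highest, summed to 59.6 and 81.05 CPM in odontoblast-like cells of WT and 112 and 130 CPM of Din-KO, and their part in the Tgfb2 difference was not tested. Tgfb2 and Tgfbr2 were 2 of 7 genes that did not overlap (20.1% of all genes). In endothelium-like cells Tgfb3, Tgfbi and Tgfbr1 were the 3 of 8 that did not (25.5% of all genes), with Tgfb3 at 10.9 and 11.6 CPM in WT and 7.3 and 4.4 in Din-KO (-0.85 ± 0.45, adjusted p = 0.9998). In macrophage-like cells Tgfb2 was the 1 of 7 (25.3% of all genes), at 24.6 CPM in both WT libraries and 21.9 and 15.5 in Din-KO (-0.27 ± 0.33). Differences between genotypes were also set against that in mesenchyme-like cells, and 0 of 10 genes were called in endothelium-like, epithelium-like or macrophage-like cells (0% of all genes in each). The largest of these was that of Fst in endothelium-like cells (-3.35 ± 1.46, adjusted p = 1), from 4 and 12 UMIs in WT and 4 and 0 in Din-KO. An unadjusted p under 0.05 was found for 0 of the 10 in each of these fits, and DESeq2 called 0.

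**Figure D5:**
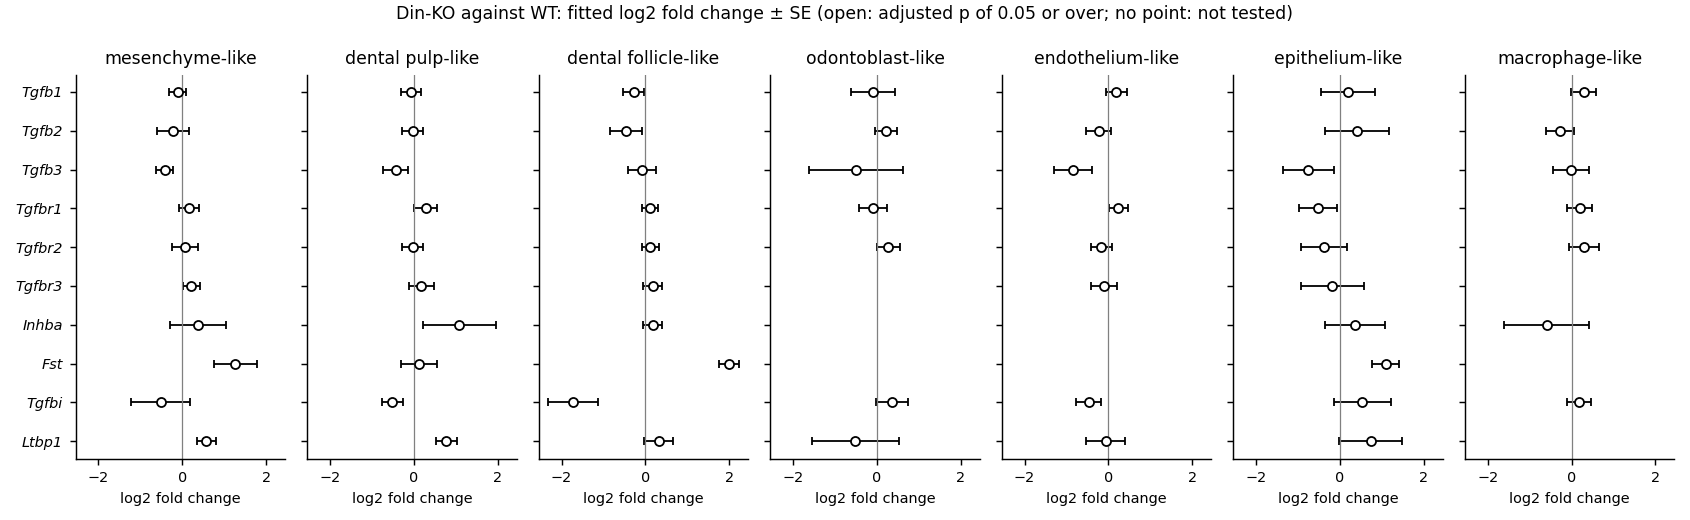
Fitted log2 fold change ± standard error of Din-KO against WT for the 10 genes in 7 classes of cells (open points: adjusted p of 0.05 or over in edgeR; no point: not tested). All points are open, and Fst in dental follicle-like cells (1.99 ± 0.24) lies farthest from 0 of them.

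The other genes of the pathway showed no call between genotypes in any of the 7 classes. In mesenchyme-like cells 0 of 34 components and 0 of 17 targets were called, 0 of either had an unadjusted p under 0.05 and DESeq2 called 0, with medians of -0.01 and -0.07 against -0.02 over all genes. In epithelium-like cells the median of 15 targets was 0.54 against -0.04 over all genes, and in the other classes it lay between -0.14 and 0.11. Dental pulp markers summed to 643.6 and 263.3 CPM in epithelium-like cells of WT and 958.5 and 741.9 CPM of Din-KO, without overlap. Markers of mesenchyme, dental follicle and odontoblasts overlapped between genotypes there, and the part of these lists in the median was not tested. The largest values in mesenchyme-like cells were those of Acvr1c, a type I receptor (1.27 ± 0.70), and Junb, an immediate early target (0.91 ± 0.41). Acvr1c was near the floor, with a highest class mean of 1.1 CPM, in odontoblast-like cells. The value of Itgb8, an integrin chain that activates latent TGF-beta, came next (0.76 ± 0.36). The smallest were those of Ltbp4 (-1.08 ± 1.29), Lrrc32, which tethers latent TGF-beta to cell surfaces (-0.50 ± 0.92), and Fstl1 (-0.41 ± 0.34), and adjusted p was 1 for all of them in edgeR. In the other classes, unadjusted p under 0.05 was found for at most 2 components and 4 targets, the 4 being in epithelium-like cells. The share of all genes under 0.05 in those classes is not reported here.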

How the data were processed

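Cells of the proximal lower incisor at P15 were measured by 10x 3' single-cell RNA-seq in 2 WT and 2 Din-KO libraries. The deposited values are raw UMI counts per gene and barcode, which the authors made with Cell Ranger 6.0.2 on mm10, per the file headers and labels. The 10 genes and all gene lists were chosen with earlier results of these data known. Barcodes under 1000 genes, over 10% mitochondrial UMIs or over 3% hemoglobin UMIs were dropped, and the rest integrated in Seurat 5.3.0 (2000 variable genes without the pathway genes, cell cycle regressed, 30 components, resolution 1) and named from marker lists where at least 3 markers were detected in 10% of cells, with a scoring rule set on the data. Scrublet in scanpy 1.11.5 marked 0.875% of cells as doublets, which were kept, and 5% were removed in an alternative. UMIs were summed per library and class, at least 20 cells each, and tested with edgeR 4.0.16 (quasi-likelihood, TMM, filterByExpr), after the scripts were tested on simulated data. DESeq2 1.42.0 was an alternative, beside RLE size factors, no filter on low counts, a replicate block, each library left out, thinned cells, Xist cells (at least 3 Xist UMIs) and other clusterings. Named pathway genes were the 3 largest and 3 smallest differences between genotypes in mesenchyme-like cells and the 3 components with the highest mean CPM in any class. For each of the 10 genes the 3 most alike genes were named, and for each cluster the 3 leading genes, and some genes and results under these rules are not reported here. Counting error sets the precision of low levels, and PCR copies were collapsed by UMI.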

Additional observations from a re-analysis of the deposited data

Results flagged for a closer look

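Tgfb2 was picked out because both Din-KO libraries lay on one side of both WT libraries in one class and on the other side in another. In odontoblast-like cells Din-KO was above WT (log2 fold change 0.21 ± 0.26) and in macrophage-like cells it was below (-0.27 ± 0.33). Neither difference was called in edgeR (adjusted p = 1 in both), and the difference between the classes was not tested. Of all genes tested, 20.1% in odontoblast-like and 25.3% in macrophage-like cells did not overlap between genotypes either. Perivascular markers summed to 59.6 and 81.05 CPM in odontoblast-like cells of WT and 112 and 130 CPM of Din-KO, and their part was not tested.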

How the results depend on the processing

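Of the counts of genes called, recomputed under other settings, 246 stayed with the reported result, small changes of a count included, and 23 moved. The other values were single-gene values and counts of genes with the same leading class. Of these 576 stayed, 21 lost and 15 gained their call, 26 changed sign and 1, a count of leading classes, moved. For genotype, the count of the 10 genes called rose from 0 to 1 with the replicate block in mesenchyme-like cells (Tgfbi -0.62, adjusted p = 0.0482) and in dental follicle-like cells to 2 with no filter on low counts, 1 with DESeq2 and 1 with the replicate block (Fst 2.0, adjusted p = 0.00488). Calls over all genes in dental follicle-like cells with no filter and with DESeq2 are not reported here. Leaving out each library gave 0 to 1 in dental pulp-like and 0 to 2 in dental follicle-like cells. Replicate numbers were shared by only 2 pairs, whose deviations correlated at 0.79 over 15199 genes, which does not show that they pair the libraries, and the block moved calls over all genes from 0 to 203 in mesenchyme-like and 0 to 93 in dental follicle-like cells. Other pathway genes called went from 0 to 1 (mesenchyme-like), 2 (dental pulp-like), 1 (dental follicle-like), 2 (endothelium-like) and 1 (macrophage-like) with the replicate block and to 1 and 3 with no filter in dental follicle-like and endothelium-like cells, and ranged from 0 to 1, 0 to 1 and 0 to 3 in dental pulp-like, dental follicle-like and endothelium-like cells with each library left out.

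Between classes, 2 genes were called in perivascular-like cells with DESeq2, 2 with thinned cells, 7 at resolution 0.5 and 7 without integration, against 4. The fits at resolution 0.5 and without integration used 4 libraries and the others 2. With each library left out, 4 to 8 were called in epithelium-like, 7 to 9 in endothelium-like and 9 to 10 in macrophage-like cells. Shares of all genes called in these settings are not reported here. Perivascular-like values changed sign at resolution 0.5 and without integration for Tgfb2 (-0.46, -0.49), Tgfbr1 (-0.25, -0.22), Tgfbr2 (0.30, 0.38), Tgfbr3 (0.82, 0.90), Fst (1.31, 1.20) and Ltbp1 (0.89, 0.94), where the class took in more cells. Between genotypes in mesenchyme-like cells the log2 fold change with each library left out ranged from -0.21 to 0.0295 for Tgfb1, -0.63 to 0.15 for Tgfb2, -0.0186 to 0.36 for Tgfbr1, -0.23 to 0.36 for Tgfbr2, -0.65 to 1.05 for Inhba and -1.58 to 0.22 for Tgfbi, and Tgfb1 was at 0.10 in Xist cells. Inhba in dental pulp-like cells ranged from -0.24 to 2.32 and was at -0.50 in Xist cells. The leading class by share of cells as deposited was that by CPM for 5 of 10 genes. The cause of these changes was not tested. Perivascular-like genotype fits, genotype differences and fits with a library left out were not run, for want of cells in the clustering used for the results. At resolution 0.5, without integration and without cell cycle regression each library held more than 20 perivascular-like cells, but these fits were not run there either. Fst and Inhba rested on few UMIs in some classes, with 0 to 18 per library in odontoblast-like cells, whose median depth was 14988 to 23319 UMIs per cell.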

Other observations

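A cluster that could not be named, led by Lpl, Col8a1 and Mgp, held 23 and 55 cells in WT and 38 and 38 in Din-KO. Inhba was at 80.3 and 134 CPM in WT and 76.4 and 294 CPM in Din-KO. Tgfb3 was at 103 to 167 CPM and Ltbp1 at 45.6 to 56.1 CPM in its 4 libraries.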
